A study of Mus musculus with 160 samples.

Results

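Fmo1, Fmo2, Fmo5, Dpep1, Gstm1, Gstm2, Gstt1, Ephx1, Cyp1b1 and Aldh2, 10 genes of drug, peroxide and glutathione metabolism among 22866 distinct gene names, were followed in single stromal cells of mouse bone marrow. The members are those rows of the expression table that carry one of these symbols. Each symbol stood alone as a gene name, and rows sharing a name were summed. They were chosen by their FPKM and listed shares in these same young and old cells, so every difference between the ages given here is a description, without a test. The study captured single cells from C57BL/6J mice on microfluidic chips, 82 cells from young mice (9 weeks by the sample labels, 10 weeks by the protocol) and 78 from old mice (24 months, or 2 years by the protocol). All cells of both ages passed the same sort for leptin receptor and CD140a, the platelet-derived growth factor receptor alpha, and against CD45, Ter119 and CD31, marks of blood, red and vessel cells. No treatment or altered allele is named for either age, and the labels tie no cell to an animal. Each age is thus 1 sample, and its cells are not replicates of that age.

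Cells meet drugs, pollutants and their own reactive by-products with enzymes that act in sequence. Oxidases such as the cytochromes P450 and the flavin-containing monooxygenases (Fmo genes) add oxygen to a compound, epoxide hydrolases and aldehyde dehydrogenases remove the reactive epoxides and aldehydes, and glutathione transferases couple what is left to the tripeptide glutathione for export. Outside the cell glutathione and its conjugates are taken apart again by surface peptidases, one of which is the dipeptidase Dpep1. In bone marrow the stroma lies around blood stem and progenitor cells, for which aldehydes and other reactive compounds are a known source of DNA damage.

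Promoter sequences are shown for 4 genes, because 3 of them (Fmo2, Dpep1 and Gstt1) were lower together in old cells and Cyp1b1 differed less. They are the 250 bases before the most upstream RefSeq start on build GRCm38.p6, written 5′ to 3′ along the gene, and capitals mark every match to the motifs named next.
Fmo2 (chr1:162898759-162899008, minus strand): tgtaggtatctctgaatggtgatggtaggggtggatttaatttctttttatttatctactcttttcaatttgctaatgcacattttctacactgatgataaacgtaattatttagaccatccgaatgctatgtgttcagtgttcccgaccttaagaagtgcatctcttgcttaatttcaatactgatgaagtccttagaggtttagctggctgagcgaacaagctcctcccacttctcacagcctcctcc
Dpep1 (chr8:123185985-123186234, plus strand): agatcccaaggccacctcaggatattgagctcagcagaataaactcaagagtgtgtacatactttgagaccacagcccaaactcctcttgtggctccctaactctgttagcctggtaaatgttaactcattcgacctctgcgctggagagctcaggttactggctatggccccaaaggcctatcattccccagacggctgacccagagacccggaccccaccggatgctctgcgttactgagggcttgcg
Gstt1 (chr10:75797732-75797981, minus strand): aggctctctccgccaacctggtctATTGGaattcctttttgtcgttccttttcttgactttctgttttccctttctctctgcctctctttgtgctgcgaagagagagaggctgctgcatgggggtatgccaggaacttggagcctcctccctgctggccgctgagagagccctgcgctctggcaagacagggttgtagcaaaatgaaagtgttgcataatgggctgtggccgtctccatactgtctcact
Cyp1b1 (chr17:79715062-79715311, minus strand): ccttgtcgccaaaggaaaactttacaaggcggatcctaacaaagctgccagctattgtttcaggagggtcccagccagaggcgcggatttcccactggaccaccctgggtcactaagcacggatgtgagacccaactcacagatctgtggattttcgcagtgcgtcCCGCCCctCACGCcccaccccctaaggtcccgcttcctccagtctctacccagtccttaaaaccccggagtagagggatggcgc
RefSeq promoters were found for 8 of the 10 members. The motifs searched on both strands were the xenobiotic response core GCGTG, which the aryl hydrocarbon receptor binds, the antioxidant response core TGACNNNGC, the early B cell factor (EBF) site, the forkhead site GTAAACA, the GC box GGGCGG, the CCAAT box (CCAAT) and the TATA box (TATAAA). The Cyp1b1 window held 1 xenobiotic core, whose 5′ end on the printed strand lies 76 bases before the start, and 1 GC box at 84 bases, which do not overlap. The Gstm1 window, not shown, also held 1 xenobiotic core. The Gstt1 window held 1 CCAAT box at 226 bases before the start, and those of Fmo2 and Dpep1 held no match. Among 27025 promoter windows of this length, 28.3% held the xenobiotic core, 10.1% the antioxidant core, 33% the GC box, 34.5% the CCAAT box, 13% the TATA box, 3.06% the forkhead and 0.773% the EBF site. The Cyp1b1 window was 58% G and C with 12 CpG pairs and the Fmo2 window 39.6% with 4, against medians of 52% and 6 over all windows. These matches are descriptions of the letters only.

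Values are FPKM, fragments scaled by transcript length and by the fragments of the cell, so levels can be set side by side between genes. A gene is called listed in a cell at 1 FPKM or more. The number of reads is not given in the sources used here, an FPKM of 0 can be a failed estimate, and a gene that is not listed is therefore not shown to be absent. The ranges printed with shares above 0 are 95% intervals by the exact Clopper-Pearson method, which cover nothing but counting error. The number of named genes listed per cell overlapped between the ages, with medians of 1114.5 in young (range 129 to 2129) and 1160 in old cells (193 to 2779). Marrow stromal markers marked the cells of both ages: at least 3 of Lepr, Pdgfra, Cxcl12, Kitl, Adipoq, Ebf3 and Foxc1 were listed in 80 young and 71 old cells, although Pdgfra itself, whose protein the sort required, was listed in only 28 and 30. None of 7 blood, 6 vessel and 7 liver cell markers was listed in any cell. A red cell marker was listed in 1 young and 1 old cell, and one of smooth muscle or pericytes in 3 and 1. Any of 6 osteoblast markers was found in 81 young cells and 72 old ones, and 3 or more of them in 3 and 4, with a median summed level of 534 FPKM in young (0.0698 to 26673) and 280 in old cells (0 to 25217). The fibroblast list reached 3 members in 3 young and 3 old cells, with a median summed level of 8.34 FPKM in young (0 to 1925) and 39.8 in old cells (0 to 50431). The part of either list in the values below was not tested. Xist, transcribed from the inactive X, was listed in 54 old and 0 young cells, and Y-linked RNA in 34 young and 0 old cells. The ages were also captured in separate sets of 96 wells. Age, sex-linked RNA and capture cannot be told apart in any value below.

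Fmo2, best known as the flavin monooxygenase of the lung, was listed in 61 of 82 young cells (74.4%, 63.6 to 83.4), whereas 34 of 78 old cells listed it (43.6%, 32.4 to 55.3). Young cells ran from 0 to 404 FPKM around a median of 18, and old cells from 0 to 851 around a median of 0.282. The ranges overlapped, and the highest single cell was an old one, which alone held 45.1% of all Fmo2 in old cells. The young mean was 60.5 FPKM and the old mean 24.2, or 13.5 without that cell. The mean of log2(FPKM + 1), in which each cell weighs alike, was 3.87 ± 2.86 for young cells and 1.82 ± 2.44 for old ones (SD over cells), a difference of -2.04. Among cells in which it was listed, the median Fmo2 level was 33.7 FPKM in young and 17.7 in old cells, so both the share of cells and the level within them were lower in old cells.

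Fmo1, a neighbour of Fmo2 on chromosome 1 that oxidises nitrogen and sulfur compounds in kidney and liver, was listed in 57.3% of young (45.9 to 68.2) and 26.9% of old cells (17.5 to 38.2). Its FPKM ran from 0 to 624 with a median of 5.90 in young cells and from 0 to 564 with a median of 0 in old cells. Mean log2(FPKM + 1) was 3.12 ± 3.13 and 1.36 ± 2.55 (SD over cells), a difference of -1.76. Among cells in which it was listed, its median was 36.9 FPKM in young and 42.4 in old cells, while the mean of log2(FPKM + 1) was 5.41 and 4.99. At least 1 of Fmo1 and Fmo2 was listed in 90.2% of young (81.7 to 95.7) and 52.6% of old cells (40.9 to 64). Their summed FPKM had a median of 50.4 in young and 2.11 in old cells. Fmo5, a liver and gut family member on another chromosome, reached 1 FPKM in 5 young and 3 old cells, with no cell above 31.3 FPKM. Fmo4 and Fmo6, which lie in the same cluster as Fmo1 and Fmo2, were listed in 0 cells, and so was Fmo9. Taking 3 cells of the total as the limit of a count of 0, listing in up to 3.66% of young and 3.85% of old cells would not have been seen. That limit is for listing only.

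**Figure D1:**
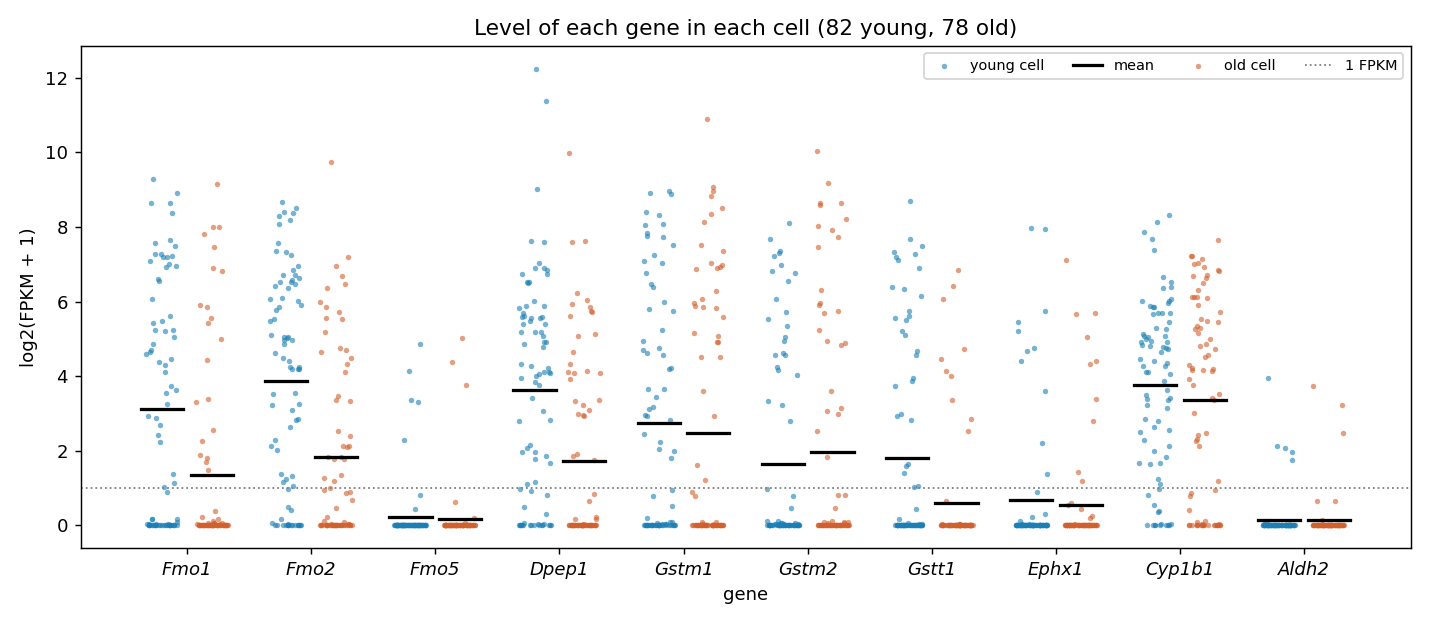
Each point is 1 cell, placed by its log2(FPKM + 1) of the gene named below it, with young cells in blue, old cells in orange, a black bar at the mean and a dotted line at 1 FPKM. Fmo1, Fmo2, Dpep1 and Gstt1 have more old than young cells near 0, whereas the Gstm1, Gstm2 and Cyp1b1 means of the ages lie within 0.41 of each other.

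Dpep1 is a lipid-anchored surface dipeptidase that splits cysteinylglycine, a breakdown product of glutathione, and converts leukotriene D4. It was listed in 72% of young (60.9 to 81.3) and 37.2% of old cells (26.5 to 48.9). Young cells ran from 0 to 4852 FPKM with a median of 15.8, and old cells from 0 to 1015 with a median of 0. The means, 128 FPKM in young and 26.5 in old cells, rested on few cells. In young cells 2 held over 50% of the sum, at 4852 and 2662 FPKM, and in old cells 1 held 49.2%. Without the highest cell of each age the means were 70.1 and 13.6, and with 5% of cells trimmed at each end the means were 31 and 9.21. Mean log2(FPKM + 1) came to 3.64 ± 2.87 for young and 1.74 ± 2.49 for old cells (SD over cells), a difference of -1.91. The other dipeptidases of the family, Dpep2 and Dpep3, were listed in 0 and in 1 young cell and in 0 old cells.

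The mu class transferases Gstm1 and Gstm2, which lie side by side on chromosome 3 and couple glutathione to electrophiles, each differed by less than 0.40 in mean log2(FPKM + 1) between the ages. Gstm1 was listed in 50% of young (38.7 to 61.3) and 39.7% of old cells (28.8 to 51.5), with FPKM from 0 to 499 (median 1.70) in young and from 0 to 1897 (median 0) in old cells. Gstm2 was listed in 29.3% (19.7 to 40.4) and 32.1% (21.9 to 43.6), with medians of 0 and maxima of 274 and 1061 FPKM. Both intervals of each gene overlapped. Their summed FPKM had a median of 6.72 in young and 28.2 in old cells, a difference of mean log2(FPKM + 1) of 0.54. In the cells where they were listed the medians were higher in old cells, 65.9 against 36.7 FPKM for Gstm1 and 59.7 against 42.5 for Gstm2. The log2 ratio of the Gstm2 means, old over young, was 1.35 (21.9 and 57.5 FPKM), whereas its difference of mean log2(FPKM + 1) was 0.32, and -0.04 without cells of extreme summed FPKM. That of Gstm1 was -0.26, and 0.30 when cells with few listed genes were left out. Gene copies limit both: of all 50-base stretches of the annotated transcripts, 18.9% of those of Gstm1 and 5.65% of those of Gstm2 also occur in other genes, among them Gstm3, each other and pseudogenes.

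Gstt1, the theta class transferase that acts on small halogenated compounds, was lower in old cells by 1 or more in mean log2(FPKM + 1). Neither gene of the mu pair was lower by as much. It was listed in 36.6% of young (26.2 to 48) and 12.8% of old cells (6.32 to 22.3). The FPKM had a median of 0 in both ages and a maximum of 413 in young and 115 in old cells, and means of 26 and 4.69. Mean log2(FPKM + 1) was 1.81 ± 2.72 and 0.59 ± 1.61 (SD over cells), a difference of -1.22. Its transcripts share no 50-base stretch with another gene. The same holds for Fmo2, whereas 4.85% of the stretches of Fmo1 and 0.411% of those of Dpep1 also occur in other genes.

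Cyp1b1, the cytochrome P450 that oxidises estradiol and polycyclic hydrocarbons outside the liver, was the most widely listed member in both ages. It was listed in 81.7% of young (71.6 to 89.4) and 65.4% of old cells (53.8 to 75.8). Levels were close, with medians of 18.5 and 15.6 FPKM, means of 36.5 and 35 and maxima of 318 and 199. In listed cells the median was 26.4 in young and 37.6 in old cells. The difference of mean log2(FPKM + 1) was -0.41. Ephx1, the microsomal epoxide hydrolase that acts after such oxidation, reached 1 FPKM in 11 young and 10 old cells (13.4% and 12.8%), with 2 young cells at 252 and 245 FPKM and the highest old cell at 138. Its exons overlap a predicted gene on the same strand, so reads there cannot be given to either. Aldh2, the mitochondrial enzyme that clears acetaldehyde, reached 1 FPKM in 5 young and 3 old cells and 14.5 FPKM at most. Its exons overlap those of a predicted gene on the other strand, and whether the authors' counting used strand is not known here.

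**Figure D2:**
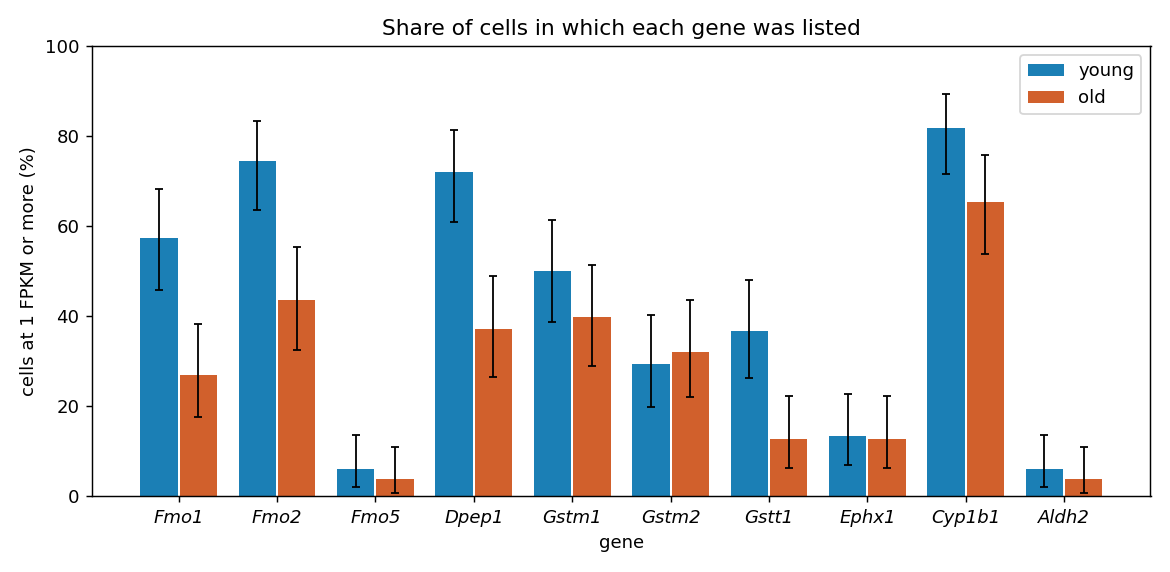
Bars give the percent of 82 young (blue) and 78 old cells (orange) in which each gene was at 1 FPKM or more, and black lines are exact 95% intervals. The shares of Fmo1, Fmo2, Dpep1 and Gstt1 were at least 20 percentage points lower in old cells, as for 1.25% of all 3829 measured genes. The intervals cover counting error only, and the members were chosen with these shares known.

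By mean log2(FPKM + 1) the order in young cells was Fmo2 (3.87), Cyp1b1 (3.76), Dpep1 (3.64), Fmo1 (3.12), Gstm1 (2.75), Gstt1 (1.81) and Gstm2 (1.66). In old cells it was Cyp1b1 (3.35), Gstm1 (2.49), Gstm2 (1.97), Fmo2 (1.82), Dpep1 (1.74), Fmo1 (1.36) and Gstt1 (0.59). Ephx1, Fmo5 and Aldh2 came last in both ages, below 0.70. Every step between neighbours in either order was smaller than the SD over cells of the genes involved. Of the 8 members listed in at least 10% of the cells of an age, 4 (Fmo1, Fmo2, Dpep1 and Gstt1) were lower in old cells by 1 or more in mean log2(FPKM + 1), a 2-fold difference on that scale, and 0 were higher by as much. Over all 3829 genes past the same filter the percentages were 1.72% lower and 1.31% higher. The median difference was -0.81 for the 8 members and 0.00 for all genes. Since the members were gathered with this contrast known, nothing is read from that comparison. The listed shares of the same 4 genes were at least 20 percentage points lower in old cells, as for 1.25% of all genes, and 0 members were higher by as much, as were 0.627% of all genes. By the ratio of means the lower members were again these 4, with log2 ratios from -1.17 for Fmo1 to -2.25 for Gstt1, and 1 member, Gstm2, was higher (1.35). By that measure 19% of all genes were lower and 20.1% higher by 1 or more.

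The number of genes listed in a cell went with nearly every member, so the ages were also compared among cells above and below the median gene number of their own age. Fmo2 was listed in 36 of 41 young cells above the median (87.8%) and in 25 of 41 below it (61%), against 24 of 39 (61.5%) and 10 of 39 (25.6%) old cells. Old cells with many listed genes thus had Fmo2 about as often as young cells with few. Fmo1 gave 75.6% and 39% in young and 41% and 12.8% in old cells. Dpep1 gave 85.4% and 58.5% against 51.3% and 23.1%, and Gstt1 gave 48.8% and 24.4% against 23.1% and 2.56%. In both strata these 4 genes had the lower share in old cells. The same held for Cyp1b1, with 95.1% and 68.3% in young against 82.1% and 48.7% in old cells, for Gstm1 and for the rarely listed Aldh2. The share of all genes that were lower in both strata was not taken. Since the members were chosen with their shares known, the strata are a description only. For Gstm1 the shares above the median were 65.9% and 61.5%, with 34.1% and 17.9% below it. For Gstm2 they were 46.3% and 38.5% above, whereas below the median old cells had the higher share, 25.6% against 12.2%. Intervals of these smaller sets are wide, for example 44.6 to 76.6 for Fmo2 in old cells above the median.

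**Figure D3:**
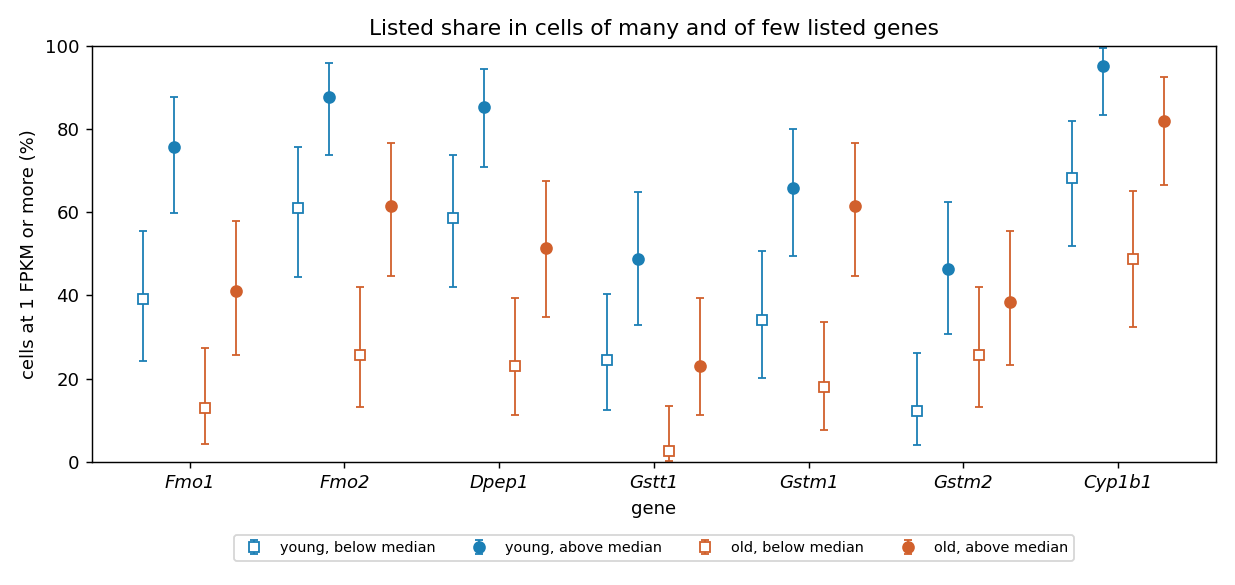
Points give the percent of cells at 1 FPKM or more among cells above (filled circles) and below (open squares) the median number of listed genes of their age, young in blue and old in orange, with exact 95% intervals. For Fmo1, Fmo2, Dpep1, Gstt1, Gstm1 and Cyp1b1 the old point lies under the young point of the same stratum, and for Gstm2 below the median it lies above.

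A young cell had a median of 4 members listed (quartiles 3 and 6, range 1 to 9) and an old cell 3 (1 and 4, range 0 to 7). As many as 6 or more were found in 23 young cells but 5 old ones, and no member in 0 young and 8 old cells. Above the median gene number the medians were 5 and 4 members, and below it 3 and 2. Spearman's rho between members listed and all genes listed was 0.79 over 82 young and 0.69 over 78 old cells, values that share the depth of each cell. Counted together in each cell, all 3 of Fmo1, Fmo2 and Dpep1 were listed in 34.1% of young (24 to 45.4) and 7.69% of old cells (2.88 to 16), and none of them in 4.88% of young (1.34 to 12) and 37.2% of old cells (26.5 to 48.9). A monooxygenase (Fmo1 or Fmo2) together with a transferase (Gstm1, Gstm2 or Gstt1) was listed in 67.1% of young and 39.7% of old cells. The shares of the single genes enter all these joint shares, and no product of shares was taken for them.

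**Figure D4:**
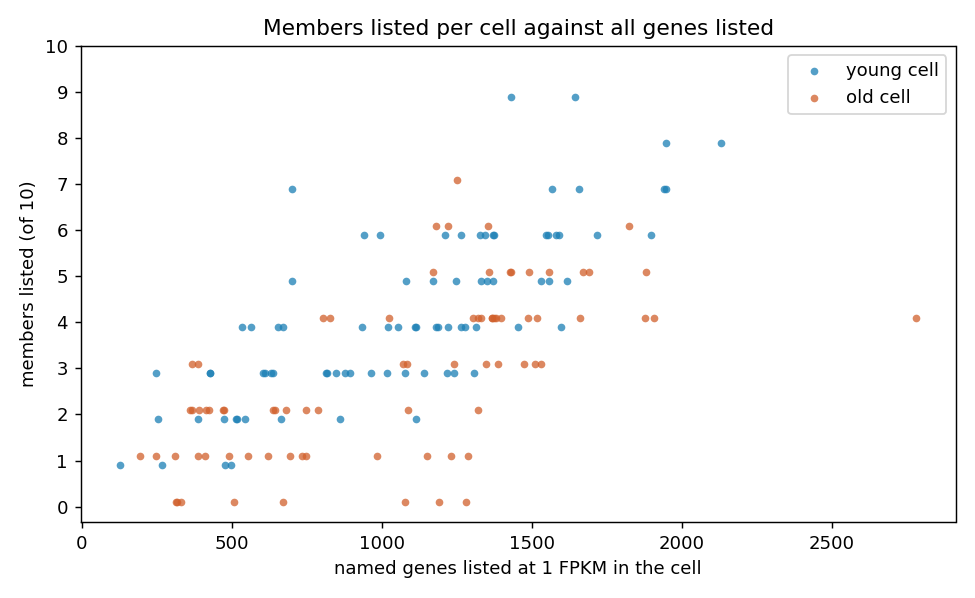
Each point is 1 cell, placed by the number of named genes listed at 1 FPKM (horizontal) and by how many of the 10 members were listed (vertical, shifted slightly by age), young in blue and old in orange. Cells with 8 or 9 members are all young, and the 8 cells with none are all old.

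Co-listing of the members within an age was weak. Phi, the correlation of 2 yes-or-no listings, was taken for the 28 pairs of the 8 members listed in at least 10% of cells. It had a median of 0.14 in young and 0.12 in old cells, and was above 0 for 25 and 26 pairs, where the median over all pairs of genes past the same filter was 0.06 (young) and 0.07 (old), and 68.6% and 70.8% of those pairs lay above 0. Among cells above the median gene number the member medians were 0.09 and 0.04, with 20 and 18 pairs above 0, beside 0.01 and 0.02 over all pairs. Below it the member medians were -0.01 and -0.06, with 13 and 10 pairs above 0, beside -0.01 and -0.04 over all pairs. Fmo1 and Fmo2, although neighbours, were both listed in 34 young cells where the product of their shares gives 35 (phi -0.05), and in 14 old cells where it gives 9.15 (phi 0.28). Above and below the median gene number their phi was -0.21 and -0.18 in young, and 0.23 and 0.13 in old cells. Spearman's rho of their FPKM was close between the ages, 0.20 in young and 0.18 in old cells. Gstm1 and Gstm2 were both listed in 17 young cells against a product of 12 (phi 0.27) and in 9 old cells against 9.94 (phi -0.05). The highest phi was that of Gstt1 and Ephx1 in young cells, 0.37, with 9 cells listing both against a product of 4.02, and 0.43 among cells above the median gene number, where 8 of these 9 lay. In old cells the highest was Gstm1 with Ephx1, 0.32, with 8 cells against 3.97. The phi of Gstt1 with Ephx1 there was 0.08, from 2 cells listing both. Spearman's rho of the FPKM of Gstt1 and Ephx1 went the other way, 0.18 in young and 0.37 in old cells. A phi of 0.25 or more was reached by 4 of the 28 member pairs in each age, beside 6.25% of all pairs in young and 7.98% in old cells. Fmo1 and Cyp1b1 had a phi of 0.29 in young and 0.26 in old cells, the only member pair at 0.25 or more in both ages. Their phi was 0.14 and 0.12 among cells above the median gene number and 0.22 and 0.24 below it. These pairs were picked after their values were seen.

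**Figure D5:**
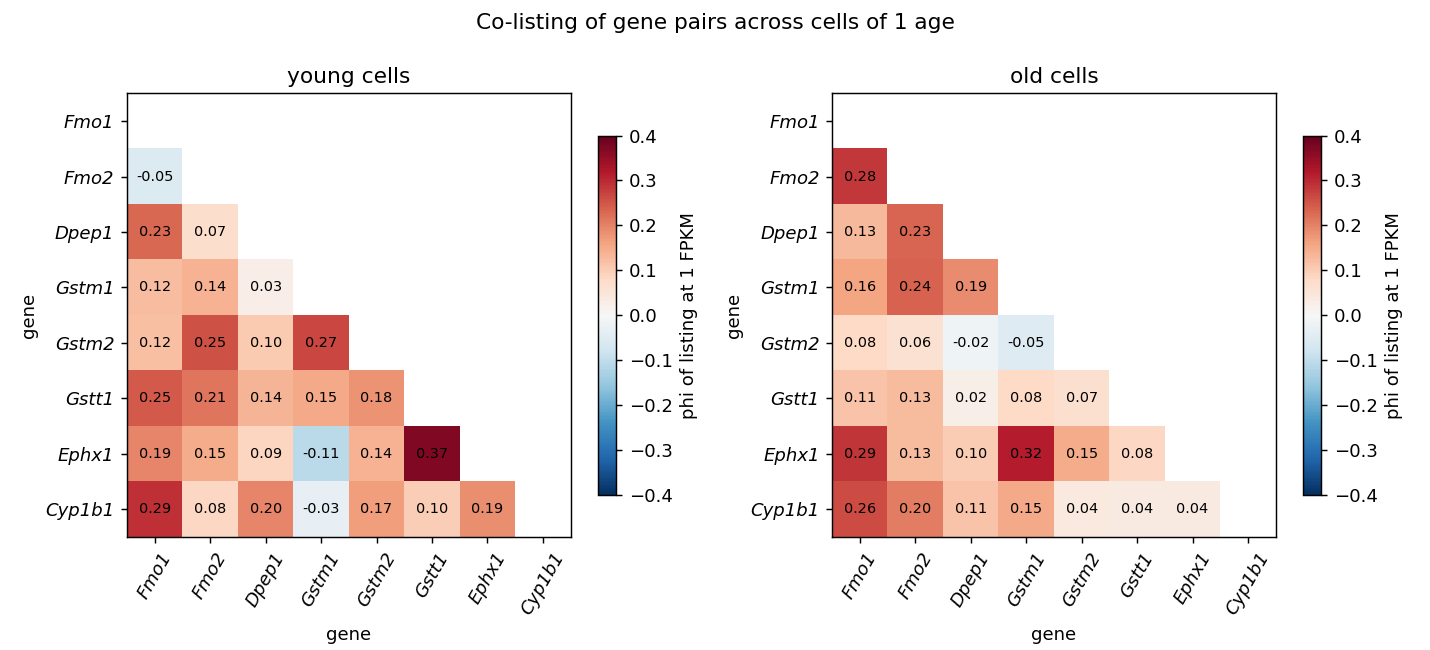
Squares give phi, the correlation across cells of 1 age between the listings of the gene in the row and the gene in the column, for the 8 members listed in 10% or more of cells, on a colour scale from -0.4 (blue) to 0.4 (red). Values run from -0.11 to 0.37 in young and from -0.05 to 0.32 in old cells.

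The members were also set against 13 genes that mark states of these stromal cells, from which these crossings were picked after their values were seen. Gstm1 was listed in 24 of 42 old cells with Phex, a bone endopeptidase (57.1%), and in 7 of 36 without it (19.4%). Among old cells above the median gene number this was 72% of 25 and 42.9% of 14. Dpep1 was listed in 52.1% of old cells with Aldh1a2, a retinoic acid synthesising enzyme, and in 13.3% of those without, but cells without Aldh1a2 had a median of only 529.5 listed genes against 1341.5, and 5 of them lay above the median gene number. Fmo2 gave 56.3% and 23.3% for the same split, and 61.8% and 60% above the median gene number. Fmo2 in young cells was listed in 88.2% of cells with the matrix proteoglycan gene Dcn and 64.6% without it, and above the median gene number in 95.7% of 23 and 77.8% of 18 cells. With Pdgfra, which 30 old cells listed, Gstm1 was in 56.7% of them and 29.2% of the others, and above the median gene number in 76.2% of 21 and 44.4% of 18. In young cells Gstm1 was listed in 46.4% with Pdgfra and 51.9% without it. Fmo2 was listed in 75% of young cells with Pdgfra and 74.1% without it. In old cells Fmo2 gave 60% and 33.3% for this split, and 66.7% and 55.6% above the median gene number. In young cells with Spp1, which encodes osteopontin, Fmo2 was listed in 76.5% of 68 and without it in 64.3% of 14, and in old cells in 60% of 25 and 35.8% of 53, or 62.5% and 60.9% above the median gene number.

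The genes most like Fmo2 over cells, ranked by the mean of Spearman's rho within each age over 1023 genes listed in at least 20% of the cells of both ages, were Adamts2, a procollagen protease (mean rho 0.40), Tmbim6 (0.40), Emp1 (0.39), Adipoq, the hormone adiponectin (0.38), and Kctd12 (0.37), where the median over all ranked genes was 0.18. After the number of listed genes was taken out, Adipoq came first at 0.27, followed by Dab2 (0.26) and Emp1 (0.23), and the median was 0.00. Nearest to Dpep1 were Itgb1 (0.39), Cdc42 (0.36) and Lamp2 (0.34), and nearest to Gstm1 were Fndc3b (0.38), Prdx1, a peroxiredoxin (0.38), and Psme1 (0.36). The ages could differ, as for Lamp2 (0.17 in young, 0.50 in old cells) and Fndc3b (0.23 and 0.54). With the number of listed genes taken out, Itgb1 (0.27), Rasa3 (0.24) and Atp6v1g1 (0.23) came first for Dpep1. For Gstm1 these were Nap1l1 (0.25), Prdx1 (0.23) and Fndc3b (0.21). Of the members themselves, Gstm1 came 71st for Fmo2 and Fmo1 came 475th, ranked before the number of listed genes was taken out. These are weak correlations over 82 young and 78 old cells whose points share depth, and no p is given.

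In 10 lists of other genes of the pathway, 198 of 201 genes were in the table and 59 were listed in 10% or more of the cells of an age, of which 4 were lower and 1 higher in old cells by 1 or more in mean log2(FPKM + 1), with a median of -0.13. Over all 3829 genes 1.72% were lower and 1.31% higher by that size, with a median of 0.00. Of 5 measured other transferases, 0 passed that size. Mgst1, the microsomal transferase of membranes, differed by -0.91 (70.7% of young, 57.7% of old cells), Gstm5 in 26.8% and 14.1% (-0.55), and Gstp1, the pi class enzyme, in 28% and 20.5% (-0.31). Glutathione synthesis and turnover had 3 measured genes of 18 and 0 of that size. Gsr, which regenerates glutathione, was in 45.1% and 39.7% of cells, Ggt5, the surface enzyme that acts before Dpep1 in breaking glutathione down, in 42.7% and 44.9%, and the cystine carrier subunit Slc3a2 in 37.8% and 33.3%. Gclc and Gclm, subunits of the enzyme that takes the first step of glutathione synthesis, did not pass the filter. Of 8 measured peroxidases and reductases 0 passed. Gpx8 was in 63.4% and 66.7% of cells with means of 85.2 and 108 FPKM, Gpx4, which protects membrane lipids, in 45.1% and 38.5%, and Esd, S-formylglutathione hydrolase, in 23.2% and 33.3% (0.82). Gpx3, the secreted plasma peroxidase, named here outside the rule, was in 98.8% and 93.6% of cells.

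Among other aldehyde and alcohol dehydrogenases 1 of 6 measured genes was higher and 1 lower by that size. Aldh1a2 was in 18.3% of young and 61.5% of old cells (2.37), and Adh1, an alcohol and retinol dehydrogenase, in 37.8% and 17.9% (-1.24), with 1 cell holding 95.9% of its summed FPKM. Aldh3a1 and the aldehyde reductase Akr1a1 differed by 0.37 and 0.03. Antioxidant and Nrf2-linked genes held the other 3, of 19 measured, all lower in old cells, by a size at which 1.72% of all genes were lower. They were the peroxiredoxins Prdx4 (39% and 19.2%, -1.23) and Prdx5 (47.6% and 32.1%, -1.15) and the ferritin heavy chain Fth1 (97.6% and 85.9%, -1.25), whereas Prdx1 (64.6% and 52.6%) and the ferritin light chain Ftl1 (92.7% and 83.3%) differed by -0.69 and -0.15. Sult1a1, a phenol sulfotransferase, was in 41.5% of young and 16.7% of old cells (-0.94), beside Nnmt, which methylates nicotinamide, in 19.5% and 20.5% (0.14), and 0 of 7 measured hydrolases and conjugating enzymes passed. The aryl hydrocarbon receptor controls Cyp1b1 in other tissues. Its list of 10 genes, which also held chaperones and the nuclear receptors Nr1i2, Nr1i3 and Rxra, had 4 measured, and 0 passed. Ahr itself, named outside the rule, was listed in 0 young and 1 old cell. Its partner Arnt was in 8 young and 8 old cells, Tiparp, a target of the receptor, in 12 and 13, and the cochaperone Ptges3 in 60 and 53. In the P450 system 4 of 25 genes were measured and 0 passed, among them Cyb5b in 14 young and 8 old and Cyp2d22 in 9 young and 3 old cells. The exporters Abcc5 (41.5% and 35.9%) and Abcg2 (12.2% and 20.5%) and the carnitine carrier Slc22a5 (11% and 7.69%) differed by less than 0.30.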

How the data were processed

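RNA was measured in 160 single cells, 82 young and 78 old, each deposited as a sample. The authors deposited FPKM values, with genes in rows and cells in columns. Cufflinks 2.1.1 and the mouse build mm9 are named in the submitters' processing notes. The aligner and depth, not given in the sources used here, are unknown, and no count model was used. Of 31199 rows, 7751 without a gene name were left out, and rows of the same name were summed. No 2 cells had identical columns. Groups came from the sample titles.

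Computed here, with Python 3.11.15, numpy 2.4.6, pandas 2.3.3 and scipy 1.17.1, were shares of cells at 1 FPKM or more, mean FPKM, mean log2(FPKM + 1), phi and Spearman's rho. A pseudocount of 1 was added, which understates differences of low genes. Differences of mean log2(FPKM + 1) and Spearman's rho were tested on simulated data, and the shares, intervals and phi were not. Each age is 1 sample, so no test was made. A gene counted as measured when listed in 10% of the cells of an age. The members and lists were chosen with earlier results of these data known. Named were all members, from each list the 3 measured genes of highest mean (skipping those with over 50% of their FPKM in 1 cell) and those past a 2-fold difference, and the genes most like Fmo2 (5), Gstm1 (3) and Dpep1 (3). Some genes of the lists are not reported here. Promoters came from RefSeq on GRCm38.p6 and transcript stretches from GENCODE M21, used for no coordinate of the table. Alternatives were other listing levels, pseudocounts, sets of cells and scalings. The settings without the highest cell of each age, or without cells of extreme summed FPKM, were chosen after seeing the data.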

Additional observations from a re-analysis of the deposited data

How the results depend on the processing

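Over 8 settings (pseudocounts, sets of cells, the highest cell left out, rescaling), the difference of mean log2, old minus young, kept its sign for Fmo2 (-2.97 to -1.06), Dpep1 (-3.06 to -0.92), Fmo1 (-2.75 to -0.86), Gstt1 (-1.97 to -0.60) and Cyp1b1 (-0.89 to -0.08). It took both signs for Gstm1 (-0.63 to 0.30), Gstm2 (-0.04 to 0.43), Ephx1 (-0.18 to 0.27), Fmo5 (-0.13 to 0.12) and Aldh2 (-0.07 to 0.04). With a pseudocount of 10, 1 member in place of 4 was lower by 2-fold, since a larger pseudocount shrinks differences of low genes. Between 7 and 9 of the 10 members had a lower listed share in old cells over 9 settings. Over all 3829 measured genes the median difference of listed share was -0.47 percentage points in the main setting. The members were chosen with these shares known, so nothing is read from that count. Among cells below the median gene number, phi was above 0 for 13 young and 10 old pairs in place of 25 and 26, and the cause was not tested. The log2 ratio of means of Fmo1 ran from -1.56 to -0.96, that of Gstm2 from 0.81 to 1.39 and that of Ephx1 from -1.10 to -0.24 over 7 settings, all crossing a 2-fold size. With a pseudocount of 0.1 or after rescaling, 5 members in place of 4 were lower by that measure, Ephx1 among them at -1.03 and -1.10. No paired analysis was possible because the cell numbers in the titles only name cells and no test was made. No replicate could be left out, because each age is 1 sample.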
